A study of Mus musculus with 12 samples.

Results

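The liver regulators described here are 10 genes chosen by symbol: Nr1i2, Nr1i3, Nr1h4, Nr1h3, Nr0b2, Nr5a2, Ahr, Rxra, Hnf4a and Por. They are 10 of the 24527 gene symbols in the count table, and all 10 passed the filter on low counts, as did 13204 symbols in all. Liver messenger RNA had been sequenced from 12 mice aged 39 weeks, the offspring of CF1 females and B6SJL males. They fall into 4 groups with n = 3 libraries each: females and males conceived naturally, and females and males conceived by in vitro fertilization (IVF) with a Jackson Laboratory protocol, where eggs are fertilized outside the body. No transgene, drug or diet was named for any group, so the groups differ by sex and by mode of conception. Pooling of animals and litter were not given in the labels, so the p-values measure the spread between these libraries.

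Nuclear receptors are transcription factors that are switched on by small molecules such as drugs, bile acids, oxysterols and hormones. In the liver, PXR (encoded by Nr1i2) and CAR (Nr1i3) sense foreign chemicals and turn on cytochrome P450 enzymes, conjugating enzymes and transporters. FXR (Nr1h4) senses bile acids and induces SHP (Nr0b2), a receptor without a DNA-binding domain that represses bile acid synthesis, partly by blocking LRH-1 (Nr5a2). LXR alpha (Nr1h3) senses oxysterols and controls cholesterol export and fatty acid synthesis. RXR alpha (Rxra) is the partner with which PXR, CAR, FXR and LXR bind DNA, and HNF4 alpha (Hnf4a) maintains hepatocyte identity. AHR is a ligand-activated factor of another family that senses planar aromatic compounds, and POR is not a transcription factor but the reductase that passes electrons from NADPH to microsomal P450 enzymes.

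Total counts ran from 6826534 to 27832271 per library. The 2 smallest libraries, IVF female replicate 1 with 6826534 counts and natural female replicate 2 with 8056230, are called shallow here. They stood apart from the other females in some of the regulators (values below). The share of all genes for which this holds was not computed. All 12 hepatocyte markers passed the filter, and their summed level was 97750 to 147498 CPM per library, against 235 to 760 CPM for 12 macrophage markers. CPM are counts scaled to a common library size. For these marker sums that size was the total count alone, without the TMM scaling used for all other CPM. The hepatocyte sum was 132396 to 147498 CPM in females and 97750 to 117492 CPM in males. The macrophage markers were at 479 to 760 CPM in females and 235 to 426 CPM in males. Stellate cell and fibroblast markers were at 554 to 707.9 CPM in females and 344 to 475 CPM in males. As mean log2 deviations of TMM-scaled CPM, which weigh each gene equally, the same 3 lists overlapped between the sexes. The hepatocyte score was -0.31 to 0.21 in females and -0.40 to 0.39 in males. The macrophage score was 0.0035 to 0.60 in females and -0.94 to 0.18 in males. The stellate cell and fibroblast score was -0.03 to 0.24 in females and -0.60 to 0.36 in males. The part of these markers in the sex differences below was not tested. In bulk tissue, fewer cells of a type and less RNA per cell cannot be told apart.

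None of the 10 regulators was called, with an edgeR quasi-likelihood adjusted p under 0.05, in any comparison. In females, IVF against natural called 0 of 10 regulators and 0% of the 13204 genes tested. In males it called 0 of 10, against 0.00757% of all genes. The test of whether the IVF difference was itself different between the sexes called 0 of 10, against 0% of all genes, and the average of both sexes called 0 of 10, against 0.00757%. For males against females, the counts were 0 of 10 against 1.77% of all genes in natural animals, and 0 of 10 against 2.19% in IVF animals. At an unadjusted p under 0.05, edgeR gave 0 regulators for IVF in females (3.7% of all genes), Por for IVF in males (2.69%), 0 for the average of both sexes (2.69%) and Por for the difference between the sexes (3.87%). The same threshold gave Nr0b2 and Nr5a2 for sex in natural animals (14.9%) and Por for sex in IVF animals (14.9%). DESeq2's Wald test also called 0 of 10 in each comparison. At an unadjusted p under 0.05 it gave Por in the 3 IVF tests other than the average, Nr0b2, Nr5a2 and Por for sex in natural animals, and Nr5a2 and Por for sex in IVF animals.

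The median log2 difference of the 10 regulators lay near that of all genes. For IVF against natural it was 0.02 in females, beside -0.01 for all genes, and -0.02 in males, beside 0.01. For males against females it was 0.12 in natural animals, beside -0.02, and 0.06 in IVF animals, beside 0.01. The standard error of a single regulator's difference had a median of 0.24 on the log2 scale in each of these 4 comparisons. This is not a limit of detection, since much larger differences were not called with 3 libraries a group. Examples are -0.73 for Por by IVF in males and 1.11 for Nr0b2 by sex in natural animals.

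**Figure D1:**
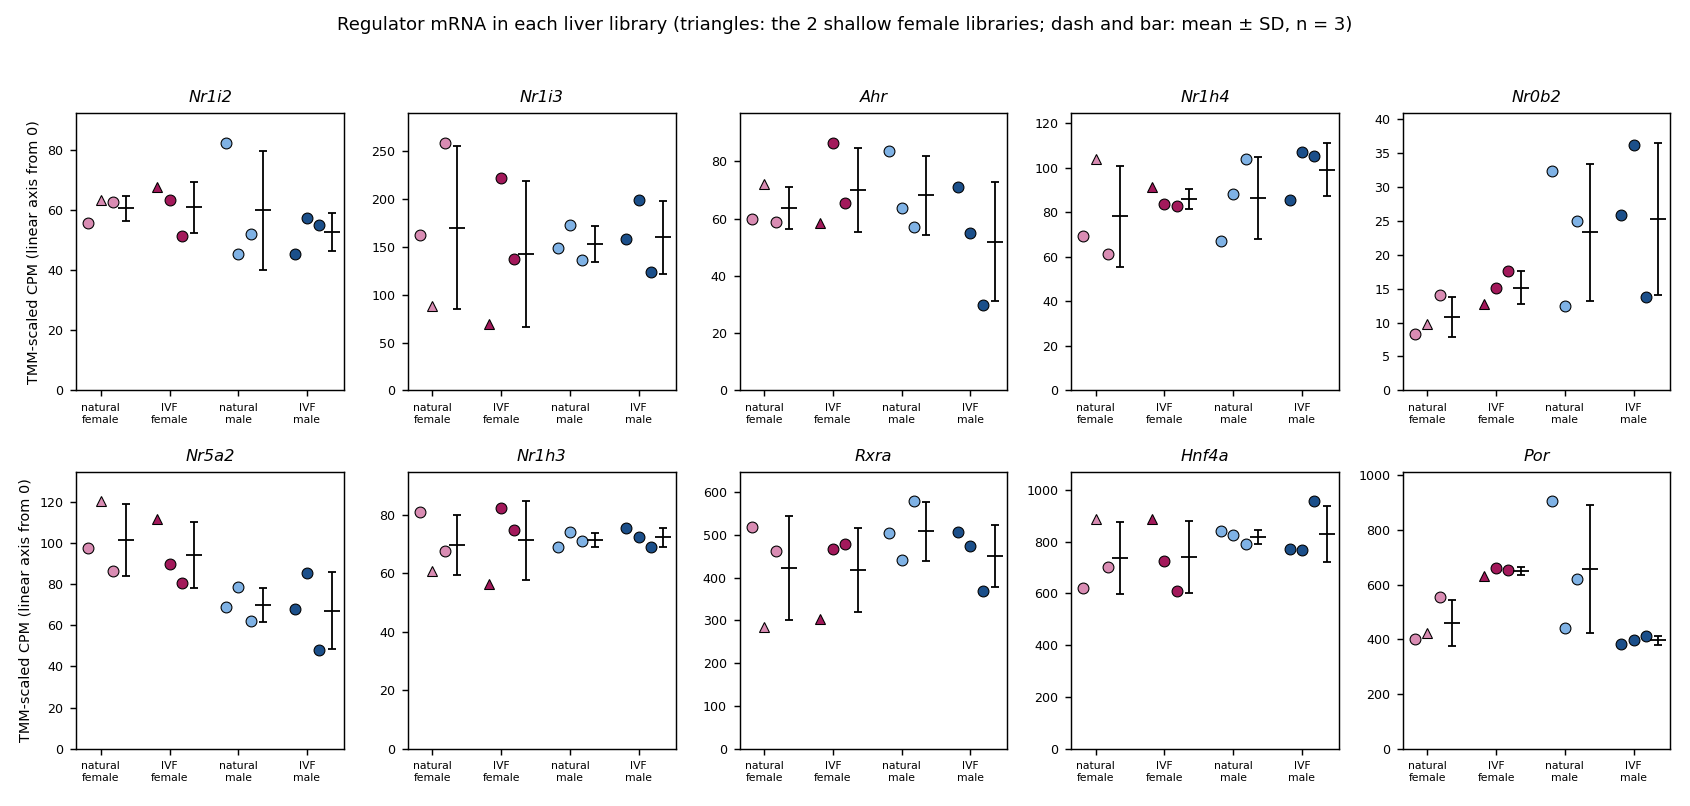
TMM-scaled CPM of each regulator (linear vertical axis from 0) in the 3 libraries of each group; points are libraries, triangles the 2 shallow female libraries, dash and bar the mean ± SD. Por is the gene whose IVF and natural libraries do not overlap in either sex, and the shallow libraries are the lowest of the female libraries for Nr1i3, Rxra and Nr1h3.

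Por was the regulator with the clearest pattern, and the direction was opposite in females and males. The gene lies on chromosome 5 (135670033 to 135735326, plus strand, GENCODE M21 on GRCm38). In IVF females the level was 632, 660.0 and 654 CPM in replicates 1 to 3, and in natural females it was 403, 422 and 554.9 CPM. In IVF males it was 381, 396 and 413 CPM, and in natural males 905, 443 and 622 CPM. All IVF females were above all natural females, and all IVF males were below all natural males. The 3 libraries of each IVF group lay close together, with a coefficient of variation of 2.27% in females and 4.03% in males, while the natural groups spread by 18.02% and 35.5%.

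The fitted difference in Por between IVF and natural was 0.50 ± 0.24 (SE) on the log2 scale in females, with a 95% interval of -0.04 to 1.03. In males it was -0.73 ± 0.25 (SE), with an interval of -1.26 to -0.19. The unadjusted edgeR p was 0.0662 in females and 0.0123 in males, and the adjusted p was 1 in both. An exact permutation test gave p = 0.1 in each sex, the smallest that 3 against 3 allows. Groups that did not overlap were found for 1 of the 10 regulators in females, against 7.42% of all genes, and for 1 of 10 in males, against 8.91%, and Por was that gene in both sexes. Random labels would give groups without overlap with a probability of 0.1 in each sex, above both shares. The combination seen in Por, higher in IVF females and lower in IVF males with no overlap in either sex, was found for 33 of 13204 genes, or 0.25%. Random labels would give this combination or its reverse with a probability of 0.005, and the reverse was not counted. The share of 0.25% is thus near what random labels would give.

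The IVF difference of Por in males minus that in females was -1.22 ± 0.35 (SE) on the log2 scale, with a 95% interval of -1.98 to -0.47. Its unadjusted edgeR p was 0.00434, its rank by p was 43 among 13204 genes, and its adjusted p was 1. An exact permutation test of this difference gave p = 0.005, the smallest that permuting conception within each sex allows. That p follows from the lack of overlap in opposite directions given above, so it adds no separate support. Over the 13204 genes tested, the difference did not pass the edgeR correction.

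The size of the male difference rested partly on natural male replicate 1, the library with 905 CPM. Without it, the Por difference in males was -0.43, with an unadjusted edgeR p of 0.0784, and the difference between the sexes was -0.92, with an unadjusted edgeR p of 0.00993. In females, without natural female replicate 3, the library with 554.9 CPM, the difference was 0.68, with an unadjusted edgeR p of 0.0292. Without the shallow libraries it was 0.47 in females.

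Sex differences in Por follow from the same 12 libraries. In IVF animals all males were below all females, with a log2 difference of -0.71 ± 0.25 (SE) and an edgeR adjusted p of 0.192. Por was the 1 regulator of 10 whose groups did not overlap there, against 21.8% of all genes. In natural animals the males and females overlapped, and the difference was 0.51 ± 0.24 (SE) with an edgeR adjusted p of 0.355. Without natural male replicate 1 it was 0.21.

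Acute phase genes, which hepatocytes raise in inflammation, differed among the same male libraries. Their mean log2 deviation over 29 genes was -0.27, 1.22 and 0.92 in natural males 1 to 3, and 0.03, -0.75 and -0.43 in IVF males. The library with the highest Por, natural male replicate 1, was thus the natural male with the lowest acute phase score. Across the groups this order did not hold. The IVF males all had scores below those of natural males 2 and 3, and their Por, 381 to 413 CPM, was below that of all natural males. In females the acute phase scores were -0.26 to 0.49 in IVF and -0.66 to 0.08 in natural animals. Clock genes, 17 of them tested, had mean deviations of -0.78, -0.50 and 0.01 in natural females 1 to 3, and from -0.11 to 0.14 in IVF females. The natural females with the lower clock scores, replicates 1 and 2, were those with the lower Por. In natural males the scores were 0.43, -0.19 and 0.36, in the order of Por, while IVF males had scores of 0.16 to 0.24, above all natural females, and the lowest Por of the 4 groups by mean. The clock score is a plain mean of genes that did not all go the same way, so it is no measure of clock phase. For example, the IVF difference in males minus that in females was 1.78 for Arntl and -2.19 for Per1 on the log2 scale. The part of either list in the Por result was not tested.

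A RefSeq start of Por is shown because, among the 10 genes, Por carried the IVF effect that differed most between the sexes. This start lies inside the gene as GENCODE annotates it, from 135670033 to 135735326, and is not its first base. The stretch is taken from the RefSeq promoter table (GRCm38.p6), on the plus strand at chr5:135688895-135689035, which covers bases 250 to 110 before the RefSeq transcription start. The remaining bases of the window overlap an annotated exon and are not shown. Capitals mark GCGTG, the core letters bound by AHR with its partner ARNT.
Por: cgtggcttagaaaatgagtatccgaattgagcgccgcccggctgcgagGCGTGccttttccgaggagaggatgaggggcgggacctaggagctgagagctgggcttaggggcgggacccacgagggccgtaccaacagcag
The 250 bases before that start held GCGTG at 3 places on either strand, at bases 202 to 198, 62 to 58 and 24 to 20 before the start. The matches at 62 to 58 and 24 to 20 lie in the part not shown. At least 1 match was found in 28.2% of 32851 RefSeq windows of the same length, so the presence of the letters is common. These windows have a median GC content of 52.4%, and the Por window has 65.6%.

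Genes around POR were taken as a list of 24 electron partners and enzymes that receive its electrons, with their cofactor supply, all of which passed the filter. For IVF against natural, 0 of 24 were called in either sex, with a median log2 difference of 0.03 in females (-0.01 for all genes) and -0.05 in males (0.01). The smallest unadjusted p in females belonged to Alas1, the rate-limiting enzyme of heme synthesis, at 386 ± 169 CPM (SD, n = 3) in IVF and 79.4 ± 51.5 CPM (SD, n = 3) in natural females. All IVF females, from 274 to 580 CPM, were above all natural females, from 25.4 to 128 CPM. The log2 difference of Alas1 was 2.28 ± 0.58 (SE), with an edgeR adjusted p of 1. Sqle, a POR-dependent enzyme of cholesterol synthesis, was next, at 129 ± 77.2 CPM (SD, n = 3) against 44.4 ± 36.3 CPM (SD, n = 3). In males the smallest p belonged to Cyp4a14, a fatty acid hydroxylase, at 8.07 to 487 CPM in IVF and 1.38 to 67.2 CPM in natural males, groups that overlapped. Hmox2, a heme oxygenase that takes electrons from POR, was at 33.2 to 36.5 CPM in IVF males and 43.1 to 45.7 CPM in natural males, without overlap and with an edgeR adjusted p of 1.

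Between the sexes, Cyp4a12a, a fatty acid hydroxylase of male mouse liver, was higher in males in both modes of conception. It was at 552 to 797 CPM in natural males against 0 to 1.08 CPM in natural females, and at 670 to 955 CPM in IVF males against 0.208 to 1.58 CPM in IVF females. The edgeR adjusted p was 8.53e-05 and 9.55e-05. In natural animals Alas1 also passed, at 507 ± 139 CPM (SD, n = 3) in males against 79.4 ± 51.5 CPM (SD, n = 3) in females, with an edgeR adjusted p of 0.0445. The count of 2 genes higher in natural males became 1 when IVF female 2 or 3, IVF male 2, natural female 1 or 2 or any natural male was left out. In IVF animals Cyp17a1, a steroid hydroxylase, was lower in males, at 1.76 ± 0.57 CPM (SD, n = 3) against 27.8 ± 11.7 CPM (SD, n = 3), with an edgeR adjusted p of 0.0241. That count of 1 became 0 when any IVF library other than IVF female replicate 1 was left out.

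**Figure D2:**
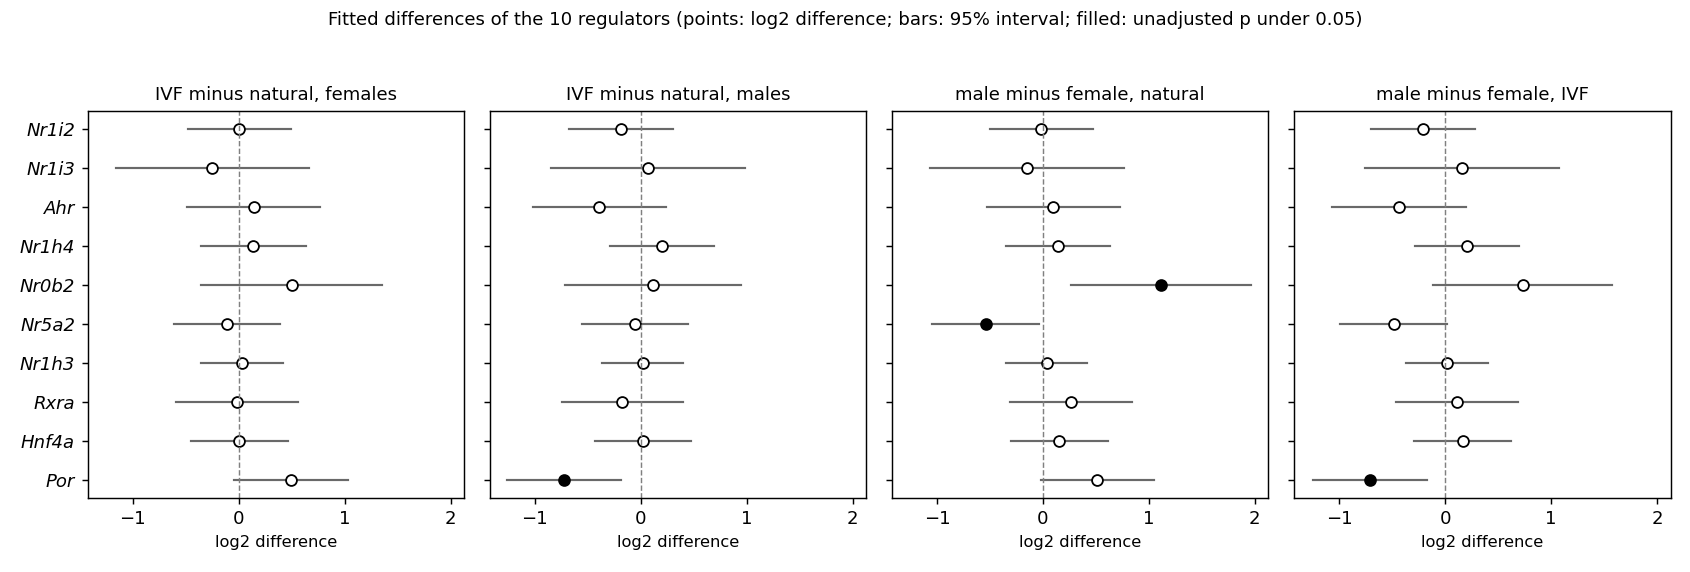
Fitted log2 differences (horizontal axis) of the 10 regulators in the comparisons of conception and of sex; points are edgeR estimates, bars 95% intervals and filled points those with an unadjusted p under 0.05. Por lies at 0.50 for IVF in females and -0.73 in males, and its interval excludes 0 in males but not in females, while the intervals of the other 9 regulators include 0 in the IVF comparisons.

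The xenobiotic receptor PXR, encoded by Nr1i2 on chromosome 16 (38248323 to 38294824), was at similar levels in all groups. Its level was 67.7, 63.4 and 51.4 CPM in IVF females and 55.8, 63.3 and 62.5 CPM in natural females. It was 45.3, 57.3 and 54.9 CPM in IVF males and 82.2, 45.2 and 52.0 CPM in natural males, where replicate 1 was the high library. Its IVF difference was 0.01 ± 0.22 (SE) on the log2 scale in females (95% interval -0.48 to 0.50) and -0.19 ± 0.22 (SE) in males (-0.67 to 0.30). Without natural male replicate 1, the male estimate was 0.11.

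CAR, encoded by Nr1i3 on chromosome 1 (171213970 to 171220701), varied most within the female groups. It was at 69.8, 222 and 137 CPM in IVF females and 162, 88.7 and 259 CPM in natural females. The lowest library of each group was the shallow one. Males lay from 123 to 199 CPM in IVF and from 137 to 173 CPM in natural animals, and the groups overlapped. For CAR the IVF difference was -0.25 ± 0.42 (SE) in females (95% interval -1.16 to 0.67) and 0.07 ± 0.42 (SE) in males (-0.85 to 0.98), the widest intervals among the 10 regulators. Without both shallow libraries the estimate in females stayed below 0.

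AHR, encoded on chromosome 12 (35497974 to 35535038), was at 58.3, 86.5 and 65.5 CPM in IVF females and 59.9, 72.1 and 58.9 CPM in natural females. In males it was at 71.1, 55.1 and 29.8 CPM in IVF and 83.6, 63.7 and 57.2 CPM in natural animals. IVF male replicate 3 was the lowest of the 12 libraries, and the groups overlapped. For Ahr the IVF difference was 0.14 ± 0.29 (SE) in females and -0.39 ± 0.29 (SE) in males, where the 95% interval was -1.02 to 0.24. Without IVF male replicate 3, the male estimate was -0.11, and without natural male replicate 1 it was -0.22. Without IVF male replicate 1 it was -0.69, with an unadjusted edgeR p of 0.0417 and an adjusted p of 1.

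Targets of PXR and CAR were followed in a list of 32 drug-metabolizing enzymes and transporters, all of which passed the filter. IVF against natural called 0 of 32 in either sex, with a median of 0.20 in females (-0.01 for all genes) and -0.10 in males (0.01). In females the smallest unadjusted p belonged to Thrsp, a lipogenic gene also induced by CAR, at 59.7 to 498 CPM in IVF and 10.95 to 96.3 CPM in natural animals, groups that overlapped. Abcb1a, a drug efflux pump, was next, at 13.1 to 21.2 CPM against 8.98 to 14.3 CPM, which also overlapped. In males Cyp2b10, the classical mouse target of CAR, was at 1.10 to 15.7 CPM in IVF and 24.3 to 42.2 CPM in natural animals, without overlap. Its log2 difference was -2.33 ± 0.70 (SE), with an unadjusted edgeR p of 0.00628 and an adjusted p of 1. Gsta2, a glutathione transferase, was at 18.3 to 39.4 CPM in IVF and 8.09 to 15.4 CPM in natural males, without overlap and with an edgeR adjusted p of 1.

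Between the sexes the same target list held many called genes. In natural animals 10 of 32 genes were lower in males and 0 were higher, and in IVF animals 12 were lower and 0 higher. Of all genes tested, 0.879% were called lower in males in natural animals and 1.28% in IVF animals. The list was chosen with earlier results of these data known and includes P450s of female mouse liver. Its excess over all genes is therefore no independent support for a sex difference in PXR and CAR targets. The median was -0.62 in natural animals (-0.02 for all genes) and -0.63 in IVF animals (0.01). Cyp3a41a, a P450 of female mouse liver, was at 3401 to 12934 CPM in natural females and 4.74 to 15.5 CPM in natural males, and its edgeR adjusted p was 2.13e-05. Cyp2c39, another P450, was at 1036 ± 238 CPM (SD, n = 3) in natural females and 31.6 ± 17.6 CPM (SD, n = 3) in natural males. Cyp2c38 was at 215 to 342 CPM in natural females and 3.83 to 10.9 CPM in natural males. In IVF animals Cyp2b13 was at 335 to 428 CPM in females and 0 to 0.886 CPM in males. Reads of these Cyp2b, Cyp2c and Cyp3a genes can be divided among near-identical copies, so the identity of each member is uncertain. Mean log2 deviations of the 32 genes were 0.84 to 1.21 in the 6 female libraries and -1.45 to -0.65 in the 6 male libraries. Nr1i2 and Nr1i3 themselves differed between the sexes by -0.02 ± 0.22 (SE) and -0.15 ± 0.42 (SE) in natural animals, and by -0.21 ± 0.22 (SE) and 0.16 ± 0.42 (SE) in IVF animals. The last of these, for Nr1i3, was -0.20 without the shallow libraries.

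**Figure D3:**
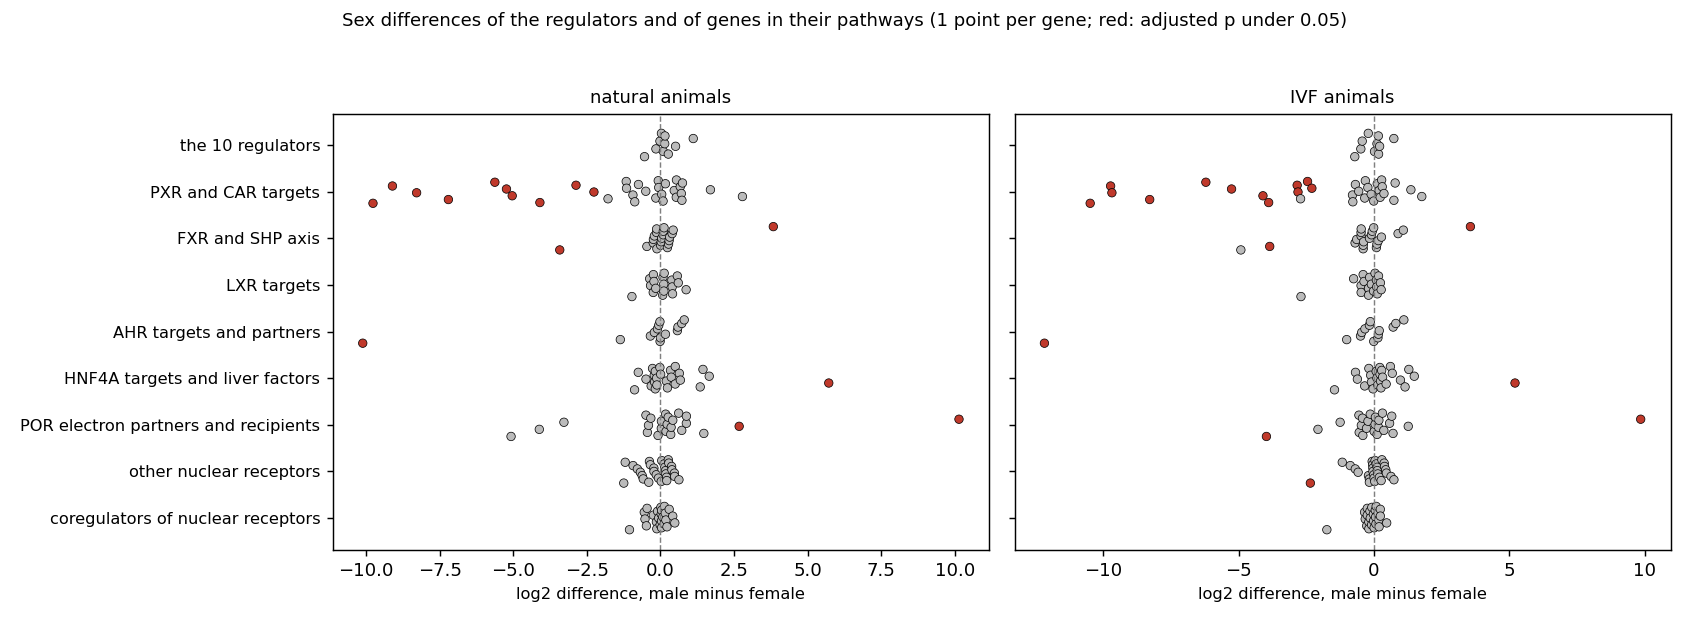
Log2 differences of males minus females (horizontal axis) for the 10 regulators and for each tested gene of 8 lists around them, in natural and in IVF animals; red points passed an adjusted p under 0.05. The regulators lie between -0.54 and 1.11 in natural animals, while the PXR and CAR targets hold 10 genes lower in males in natural animals and 12 in IVF animals. Some of the far values, but not all, belong to genes near 0 CPM in 1 sex, whose fitted size depends on the prior count.

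Targets and partners of AHR numbered 16, of which 14 passed the filter. IVF against natural called 0 of 14 in either sex, with a median of 0.10 in females (-0.01 for all genes) and 0.08 in males (0.01). Cyp1a2, the hepatic AHR target that oxidizes caffeine, was at 617 to 1113 CPM in IVF and 467 to 598 CPM in natural females. It was at 591 to 707 CPM in IVF and 783 to 1130.2 CPM in natural males. The groups did not overlap in either sex and the order was opposite, a combination found for 0.25% of all genes, with an edgeR adjusted p of 1 in each sex. The list as a whole did not share this order. The IVF difference in males minus that in females was -1.14 for Cyp1a2 on the log2 scale. Over the 14 genes its median was 0.06 (0.03 for all genes), and 9 of the 14 estimates were above 0. Nqo1, a quinone reductase, was at 4.30 to 5.84 CPM in IVF males and 2.01 to 3.79 CPM in natural males, without overlap and with an edgeR adjusted p of 1.

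The bile acid receptor FXR, encoded by Nr1h4 on chromosome 10 (89454234 to 89533585), was at 91.1, 83.6 and 83.0 CPM in IVF females and 69.2, 104 and 61.2 CPM in natural females. The high natural library was the shallow one. In males it was at 85.4, 107 and 105 CPM in IVF and 67.2, 88.0 and 104 CPM in natural animals. The IVF difference was 0.14 ± 0.23 (SE) in females and 0.20 ± 0.23 (SE) in males, with a 95% interval of -0.36 to 0.63 and of -0.29 to 0.69. The groups overlapped in both sexes, and without both shallow libraries the estimate in females was 0.37.

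SHP, encoded by Nr0b2 on chromosome 4 (133553376 to 133556536), was the least abundant of the 10 genes in CPM and the regulator with the largest sex difference. It was at 8.38, 9.83 and 14.1 CPM in natural females and 32.4, 12.5 and 25.1 CPM in natural males. In IVF animals it was at 12.8, 15.1 and 17.6 CPM in females and 25.9, 36.2 and 13.8 CPM in males. In each mode of conception, 2 of the 3 males were above all females, and the remaining male lay among them. The log2 difference of males minus females was 1.11 ± 0.39 (SE) in natural animals, or 2.17-fold, with a 95% interval of 0.26 to 1.97 and an edgeR adjusted p of 0.201. In IVF animals it was 0.73 ± 0.39 (SE), with an interval of -0.11 to 1.58 and an edgeR adjusted p of 0.42. The IVF estimate was 0.38 without IVF male replicate 2. In natural animals the unadjusted edgeR p was 0.0563 without natural female replicate 1 and 0.0751 without natural male replicate 1. For IVF against natural it was 0.50 ± 0.39 (SE) in females and 0.12 ± 0.38 (SE) in males, and the groups overlapped.

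Clock genes stand beside the sex difference of Nr0b2 in natural animals. Their mean deviation was -0.78, -0.50 and 0.01 in natural females 1 to 3 and 0.43, -0.19 and 0.36 in natural males 1 to 3. The order of Nr0b2 within these 2 groups was the same as that of the clock score. This score is a plain mean of genes that did not all go the same way, so it is no measure of clock phase. In IVF females, where the clock scores were 0.14, -0.11 and 0.04 in replicates 1 to 3, the order differed: replicate 1 had the highest score and the lowest Nr0b2. In IVF males the scores were 0.20, 0.24 and 0.16, in the order of Nr0b2. Arntl, the core activator of the clock, was at 4.23 to 22.2 CPM in natural females and 2.10 to 2.65 CPM in natural males, with an edgeR adjusted p of 0.0244. It was the 1 called gene of 17, and the count became 0 when natural female 1 or 2 or any natural male was left out. The part of the clock genes in the Nr0b2 difference was not tested, and the labels used here give no time of day for the collection.

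LRH-1, encoded by Nr5a2 on chromosome 1 (136842571 to 136960448), had a negative estimate for males minus females in both modes of conception. It was at 97.8, 120 and 86.4 CPM in natural females and 68.8, 78.7 and 62.0 CPM in natural males, without overlap. It was the 1 regulator of 10 whose groups did not overlap in natural animals, against 20% of all genes. In IVF animals it was at 112, 89.7 and 80.7 CPM in females and 68.0, 85.5 and 48.0 CPM in males, and the groups overlapped. The log2 difference of males minus females was -0.54 ± 0.23 (SE) in natural animals, with an edgeR adjusted p of 0.299, and -0.49 ± 0.23 (SE) in IVF animals, with an edgeR adjusted p of 0.354. The shallow libraries were the highest 2 of the 6 female libraries. With both left out, the estimate for males minus females was -0.41 in natural animals, with an unadjusted edgeR p of 0.0905, and -0.38 in IVF animals. In natural animals the unadjusted p was also above 0.05 with a covariate for the shallow libraries (0.0701), with the GC offset (0.0576), and without natural female 1 or 2 or natural male 1 or 3. In IVF animals the estimate was -0.29 without IVF male replicate 3. For IVF against natural the difference was -0.11 ± 0.23 (SE) in females and -0.06 ± 0.23 (SE) in males.

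Upstream sequences of Nr0b2 and Nr5a2 are shown because these genes had the largest sex differences among the receptors with known roles in bile acid synthesis. Both are the 250 bases before the RefSeq start (GRCm38.p6), at chr4:133553126-133553375 on the plus strand for Nr0b2 and chr1:136960449-136960698 on the minus strand for Nr5a2. Capitals mark GCGTG in Nr0b2 and AGGTCA, the hexamer to which many nuclear receptors bind, in Nr5a2.
Nr0b2: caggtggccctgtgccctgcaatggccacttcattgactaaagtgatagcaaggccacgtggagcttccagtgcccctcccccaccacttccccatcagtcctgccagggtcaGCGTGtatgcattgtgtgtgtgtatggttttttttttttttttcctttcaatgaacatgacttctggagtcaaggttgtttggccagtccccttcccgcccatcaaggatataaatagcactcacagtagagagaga
Nr5a2: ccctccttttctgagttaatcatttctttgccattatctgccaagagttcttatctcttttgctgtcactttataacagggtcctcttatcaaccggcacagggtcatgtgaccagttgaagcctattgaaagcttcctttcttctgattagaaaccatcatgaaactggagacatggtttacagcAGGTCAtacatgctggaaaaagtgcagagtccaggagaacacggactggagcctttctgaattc
The Nr0b2 match lay at bases 137 to 133 before the start, and the Nr5a2 match at bases 64 to 59. AGGTCA was found on either strand upstream of 3 of the 9 regulators with a window in the table (Nr1h4, Nr5a2 and Rxra), and in 14% of 32851 RefSeq windows. AAGGTCA, the longer form that contains it, was found upstream of Rxra alone among the 9 and in 4.08% of all windows. GCGTG was found upstream of 3 of the 9 (Nr0b2, Nr5a2 at a second start and Por) and in 28.2% of all windows. CAAAGTC, core letters of HNF4 alpha sites, was found in none of the 13 windows of the 9 regulators and in 3.84% of all windows.

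The list around FXR and SHP held 22 bile acid and lipid genes, of which 21 passed the filter. IVF against natural called 0 of 21 in either sex, with a median of 0.11 in females (-0.01 for all genes) and -0.14 in males (0.01). Baat, the enzyme that conjugates bile acids with taurine and glycine, was at 242 to 262 CPM in IVF females and 185 to 216 CPM in natural females, without overlap and with an edgeR adjusted p of 1. Pltp, a phospholipid transfer protein, was at 12.3 to 27.2 CPM against 4.79 to 14.9 CPM, which overlapped. Abcb11, the bile salt export pump and a direct FXR target, was at 273 to 401 CPM in IVF males and 425 to 569 CPM in natural males, without overlap. Its log2 difference was -0.53 ± 0.25 (SE), with an edgeR adjusted p of 1. Slc51b, a subunit of a bile acid transporter, was at 0 to 0.1 CPM in IVF males and 0.228 to 0.649 CPM in natural males, levels of a few counts.

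Between the sexes, Cyp7b1 was higher and Vldlr lower in males in both modes of conception, and they were the 2 called genes of the 21. Cyp7b1, the oxysterol hydroxylase of the alternative bile acid pathway, was at 916 ± 174 CPM (SD, n = 3) in natural males and 64.1 ± 26.5 CPM (SD, n = 3) in natural females, or 14.3-fold, with an edgeR adjusted p of 7.57e-05. In IVF animals it was at 686 ± 28.3 CPM (SD, n = 3) in males and 58.1 ± 18.4 CPM (SD, n = 3) in females, or 11.8-fold. Vldlr, the very low density lipoprotein receptor, was at 5.63 ± 3.96 CPM (SD, n = 3) in natural males and 59.9 ± 10.9 CPM (SD, n = 3) in natural females, with an edgeR adjusted p of 0.00766. The median of the list was 0.04 in natural animals (-0.02 for all genes) and -0.17 in IVF animals (0.01).

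The oxysterol receptor LXR alpha, encoded by Nr1h3 on chromosome 2 (91184061 to 91202834), varied less within the male groups than within the female groups. It was at 56.4, 82.5 and 74.9 CPM in IVF females and 80.9, 60.6 and 67.6 CPM in natural females, where the lowest library of each group was the shallow one. In males it was at 75.5, 72.4 and 69.0 CPM in IVF and 69.0, 74.0 and 71.2 CPM in natural animals. IVF and natural animals differed by 0.03 ± 0.18 (SE) in females and 0.02 ± 0.18 (SE) in males, with a 95% interval of -0.35 to 0.42 and of -0.37 to 0.40, the narrowest among the 10. Sex differences were 0.03 ± 0.18 (SE) in natural and 0.02 ± 0.18 (SE) in IVF animals, and their sign changed in 6 and 9 of the 21 alternatives.

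The 18 LXR targets all passed the filter, and 0 were called in any IVF comparison or between the sexes. The median for IVF against natural was 0.19 in females (-0.01 for all genes) and -0.04 in males (0.01). In females Lpl, lipoprotein lipase, was at 10.4 to 276 CPM in IVF and 7.98 to 21.0 CPM in natural animals, which overlapped. Mlxipl, which encodes the glucose-sensing factor ChREBP, was at 142 to 189 CPM in IVF and 190 to 294 CPM in natural females, without overlap. In males it was at 126 to 213 CPM in IVF and 114 to 124 CPM in natural animals, again without overlap and in the opposite order. Its edgeR adjusted p was 1 in each sex. Abca1, the cholesterol exporter, was at 217 to 314 CPM in IVF males and 279 to 348 CPM in natural males, which overlapped.

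RXR alpha, the shared partner, encoded by Rxra on chromosome 2 (27676440 to 27762957), was at 304, 467 and 480 CPM in IVF females and 518, 285 and 463 CPM in natural females. The lowest library of each group was again the shallow one. Males lay from 369 to 507 CPM in IVF and from 441 to 579 CPM in natural animals, and the groups overlapped. The IVF difference was -0.02 ± 0.26 (SE) in females (95% interval -0.59 to 0.56) and -0.17 ± 0.26 (SE) in males (-0.75 to 0.40).

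HNF4 alpha, encoded by Hnf4a on chromosome 2 (163506808 to 163572910), was at 886, 724 and 609 CPM in IVF females and 619.8, 889 and 700.5 CPM in natural females. Here the highest library of each group was the shallow one. Males lay from 766 to 956 CPM in IVF and from 789 to 842 CPM in natural animals. The IVF difference was 0.01 ± 0.21 (SE) in females (95% interval -0.45 to 0.46) and 0.02 ± 0.21 (SE) in males (-0.44 to 0.48). Of 26 listed HNF4 alpha targets and liver factors, 25 passed the filter and 0 were called for IVF in either sex, with a median of -0.08 in females and -0.10 in males. In females Pck1, a gluconeogenic enzyme, was at 1538 to 1766 CPM in IVF and 863 to 1019 CPM in natural animals, and G6pc, another, was at 44.5 to 92.3 CPM and 119 to 162 CPM. Neither overlapped, and each had an edgeR adjusted p of 1. Cyp2d9, a steroid hydroxylase of male liver, was the 1 gene of the list called between the sexes, at 1714 ± 758 CPM (SD, n = 3) in natural males and 32.4 ± 24.0 CPM (SD, n = 3) in natural females.

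In some regulators both shallow libraries lay outside the range of the other females, on the same side. The share of all genes for which this holds was not computed. Against the other females they were low for Nr1i3 (69.8 and 88.7 CPM against 137 to 259), Rxra (304 and 285 against 463 to 518) and Nr1h3 (56.4 and 60.6 against 67.6 to 82.5). They were high for Hnf4a (886 and 889 against 609 to 724), Nr5a2 (112 and 120 against 80.7 to 97.8) and Nr1h4 (91.1 and 104 against 61.2 to 83.6). One lies in each female group. The GC content of the longest transcript was 57.0% for Rxra, 56.8% for Nr1h3 and 53.0% for Nr1i3, and 53.7% for Hnf4a, 47.2% for Nr1h4 and 43.2% for Nr5a2. In the remaining regulators the shallow libraries did not both stand apart. Their GC content was 58.35% for Por, 57.77% for Nr0b2, 53.19% for Nr1i2 and 46.2% for Ahr. The part of GC content in the shallow libraries was not tested. Without both shallow libraries, 0 of 10 regulators were called in any of the 6 comparisons.

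**Figure D4:**
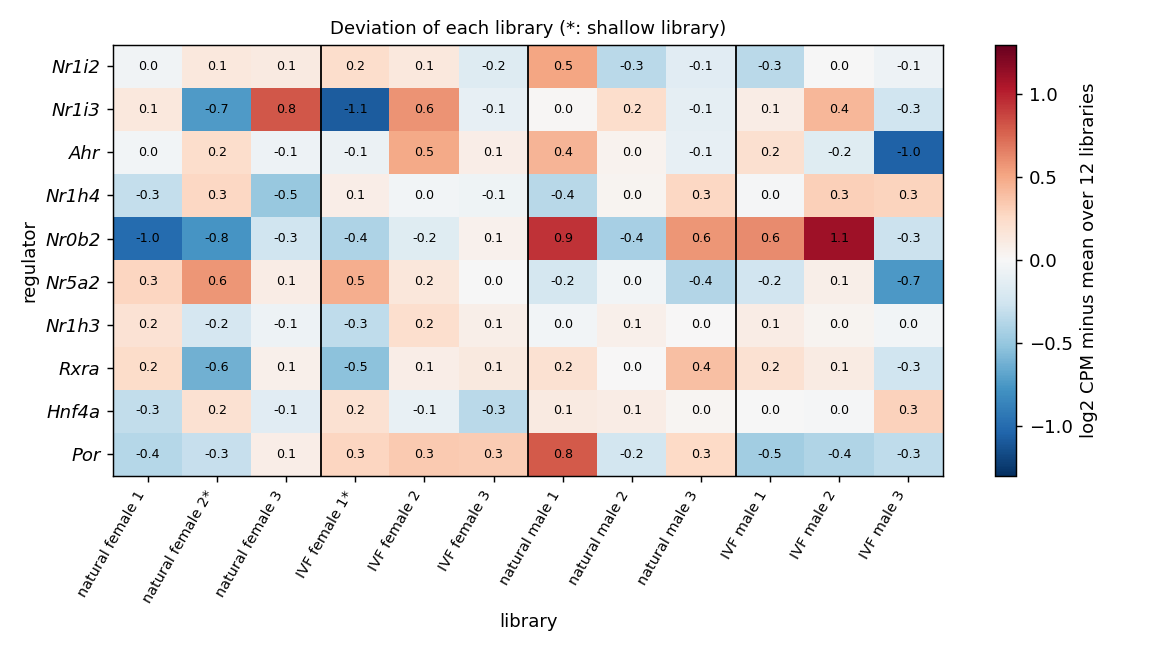
Log2 CPM of each regulator (rows) in each library (columns, grouped) minus its mean over the 12 libraries; red is above and blue below the mean, and asterisks mark the shallow libraries. The shallow libraries are low for Nr1i3 and Rxra and high for Nr5a2, and natural male 1 is the highest library for Por at 905 CPM.

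To compare levels between genes, counts were divided by merged exon length and scaled to the same total in every library (a per-length level). On this scale Hnf4a, Por and Rxra were the 3 highest of the 10 regulators in each group. Hnf4a had 455 ± 71.8 (SD, n = 3) in natural females, 439.6 ± 65.2 in IVF females, 368 ± 31.2 in natural males and 403 ± 26.0 in IVF males. Por had 349 ± 108 (SD, n = 3), 466 ± 38.4, 360 ± 150 and 232 ± 18.3 in the same groups. It was thus first in IVF females and second in the others, and in IVF males the libraries of Por, from 214 to 251, lay below those of Hnf4a, from 373 to 422. In the other groups the libraries of Por and Hnf4a overlapped. Using the longest transcript in place of merged exons put Por before Hnf4a in natural females and natural males too. Rxra had 197 to 235 as group means and overlapped Por in each group other than IVF females. Nr1h4 and Nr1i3 followed, from 74.8 to 120.5 as group means, and they overlapped each other in each group. Nr1h3 had group means from 61.6 to 83.4 and Nr1i2 from 48.2 to 71.3. Nr0b2, Nr5a2 and Ahr were the lowest 3 in females, with Ahr last in IVF females and Nr0b2 last in natural females. In males Nr5a2 and Ahr were the lowest, at 25.6 and 24.1 in natural animals and 27.2 and 20.5 in IVF animals.

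Other nuclear receptors and their coregulators gave 0 calls for conception. Of 38 other receptors, 29 passed the filter, with a median of 0.01 in females and 0.01 in males. Esr1, which encodes estrogen receptor alpha, had the smallest unadjusted p of the list in both sexes. It was the 1 receptor called between the sexes, in IVF animals, at 10.5 to 16.8 CPM in males and 67.2 to 74.3 CPM in females, with an edgeR adjusted p of 0.000175. Nr1d1, the clock repressor REV-ERB alpha, was at 69.9 to 107 CPM in IVF males and 51.9 to 76.5 CPM in natural males, which overlapped. Of 25 coregulators, all of which passed the filter, 0 were called in any comparison.

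Likeness to other genes was described with Pearson's r of log2 CPM over the 12 libraries, among the 9095 genes whose mean was 5 CPM or more. These values are the highest of many and carry no test, and the libraries share depth and composition. The gene most like Por was Tmx1, a thioredoxin-related membrane protein of the endoplasmic reticulum, with r = 0.887 and Spearman's rho = 0.867, and r = 0.926 without the shallow libraries. For Nr0b2 it was Tsc22d3 (r = 0.911, rho = 0.839), followed by Klf15 (r = 0.896). Nr1i2 was closest to Pan3 (r = 0.898, rho = 0.909) and then to Tiparp (r = 0.882), which stands on the AHR list. Rxra was closest to Cyb561a3 (r = 0.986, rho = 0.944), and without the shallow libraries r was 0.951. Hnf4a was closest to Rps6kb1 (r = 0.951, rho = 0.93) and Nr5a2 to Ccdc141 (r = 0.93, rho = 0.902). For Nr1i3 the closest gene was Ushbp1, at r = 0.927 with all libraries and 0.872 without the shallow libraries, and for Nr1h3 it was Uck1, at 0.939 and 0.798. Nr1h4 was closest to Prmt9 (r = 0.88, rho = 0.86). Ahr was closest to Akr1e1, at r = 0.871, which became 0.41 without the 2 libraries farthest from the median of Ahr, so that likeness rests on those libraries. None of the 10 regulators was among the 3 genes most like another.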

How the data were processed

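The authors deposited whole-number read counts per gene symbol in 1 table, with a column for each of the 12 libraries. Per the submitters' processing notes, Trimmomatic 0.32, STAR 2.3.0e, featureCounts 1.5.0 and the mm10 build were named; which annotation was counted, whether strand was used and how multi-mapped reads were handled is not given in the sources used here. Per the labels' protocols, poly-A RNA was sequenced after TRIzol extraction, from livers collected at 12 and 39 weeks, and all libraries used here are labelled 39 weeks. Columns were matched to samples by name, and replicate numbers follow accession order.

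From the deposited counts, edgeR 4.0.16 (R 4.3.3) was run with filterByExpr, TMM and a mean per group over all 12 libraries, and p-values were adjusted by Benjamini-Hochberg over 13204 genes. A gene was called at an adjusted p under 0.05. CPM are TMM-scaled, apart from the marker sums, which are scaled to total counts alone. Log2 CPM use a prior count of 2, and SE is the log2 difference over the root of F. Exact permutation tests were two-sided. Of 24527 symbols, 23805 matched GENCODE M21 (GRCm38) by symbol, 346 by synonym and 376 did not. Alternatives were DESeq2 1.42.0, its size factors, limma 3.58.1 voom, library size alone, no filter, an adjusted p under 0.1, the shallow libraries as a covariate or left out, a GC offset (loess span 0.5) and leaving out each library. The model code was tested on simulated data.

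The members and lists were chosen with earlier results of these data known. All members are named; from each list, the up to 3 called genes of smallest p, or with none called the 2 of smallest unadjusted p, in the comparisons described; for likeness, the 3 genes of highest r per member, of which the text gives the first and some others. One result that the rule would name is not reported here.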

Additional observations from a re-analysis of the deposited data

Results flagged for a closer look

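Por was flagged because all 3 IVF females were above and all 3 IVF males below the natural animals of their sex. The IVF difference in males minus that in females was -1.22 ± 0.35 (SE) on the log2 scale. Its exact permutation p was 0.005, the smallest that the design allows. Any gene flagged by this rule reaches that p, so it adds no separate support. The edgeR adjusted p over all 13204 genes was 1, so the difference did not pass the correction. Among the alternatives, the smallest adjusted p of this difference was 0.27, in DESeq2.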

How the results depend on the processing

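The count of regulators called was 0 of 10 in all 6 comparisons under each of the 21 alternatives. The smallest adjusted p values were 0.0589 for Nr5a2 by sex in natural animals (library size alone), 0.0664 for Por by sex in IVF animals (DESeq2) and 0.0926 for Nr0b2 by sex in natural animals (DESeq2). Por kept its direction under each alternative. Leaving out 1 library gave 0.41 to 0.68 for IVF in females, -0.95 to -0.43 in males and -1.44 to -0.92 for their difference. As the IVF and natural libraries of Por did not overlap, leaving out 1 of them could hardly reverse these signs, so this adds no support. Library size alone moved the median of all genes to -0.34 for sex in natural animals, 0.14 for IVF in males and 0.23 for the difference between the sexes.

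Estimates near 0 changed sign, and the cause was not tested. For IVF in females, library size alone gave -0.069 for Nr1i2, -0.030 for Nr1h3 and -0.068 for Hnf4a, limma voom gave -0.0027 for Nr1i2, leaving out both shallow libraries gave -0.026 for Nr1i2, and the GC offset gave 0.079 for Rxra. For IVF in males, library size alone gave 0.088 for Nr5a2. Leaving out 1 library gave, for IVF in females, -0.052 to 0.11 for Nr1i2, -0.71 to 0.22 for Nr1i3, -0.23 to 0.19 for Rxra, -0.12 to 0.16 for Hnf4a, -0.086 to 0.20 for Nr1h3, -0.038 to 0.28 for Ahr and -0.23 to 0.028 for Nr5a2. For IVF in males it gave -0.016 to 0.049 for Nr1h3, -0.12 to 0.22 for Nr1i3, -0.24 to 0.43 for Nr0b2, -0.27 to 0.13 for Nr5a2, -0.093 to 0.074 for Hnf4a and -0.36 to 0.11 for Nr1i2. For males minus females in natural animals, the sign changed in 7 of 21 alternatives for Nr1i2, 6 for Nr1h3, 2 each for Nr1h4 and Ahr, and 1 each for Nr1i3, Rxra and Hnf4a. In IVF animals it changed in 9 for Nr1h3 and 4 each for Nr1i3 and Rxra.

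Among the lists by sex, leaving out 1 library gave 9 to 10 PXR and CAR targets lower in natural males and 8 to 13 in IVF males. No paired analysis was possible because replicate numbers follow accession order and pair no animals. The titles of IVF female replicate 1 and IVF male replicate 2 share a leading number that the labels do not explain, so whether these animals are related, which bears on sex in IVF animals, is not known.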
